A study of Mus musculus with 12 samples.

Results

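The array carried 114 mouse miRNA names from miR-1000 to miR-2999, out of 1096 names in all. They were chosen by name alone: every entry of the form miR-N in that range was taken with any ending, except miR-1188, miR-1193, miR-1197, miR-1224 and miR-2861. Levels were measured in whole quadriceps muscle of 6 cofilin-2 null mice (Cfl2-KO, named KO1 to KO6) and 6 wildtype mice (WT1 to WT6) at postnatal day 7, all C57Bl/6. Each sample was a different mouse. The labels give the genotype as a plain null and name no tissue-specific driver, and the methods describe the animals as littermate pairs. Cofilin-2 is the muscle form of an actin-severing protein that turns over thin filaments, and its loss causes a myopathy. The comparison asks which of these miRNAs differed in muscle that lacks it. All WT samples were labelled with Cy5 and all KO samples with Cy3, so a dye difference and a genotype difference cannot be told apart. In whole muscle, fewer cells of a type and less RNA per cell cannot be told apart either.

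MicroRNAs are short single-stranded RNAs cut from hairpin precursors, and they lower the output of mRNAs that pair with their seed, the bases near the 5′ end. Names are given in order of registration, so numbers in this range belong to miRNAs that were mostly found late, by deep sequencing. Many of them are known from mouse or rodents alone, and several entries were later recognised as pieces of other RNAs, such as tRNAs. A star marks the arm of the hairpin that was taken as the less abundant one when it was named.

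The mature sequences below belong to the miRNAs on which the results turn, printed 5′ to 3′ with the seed (bases 2 to 8) in capitals. They are RefSeq sequences on GRCm38.p6, and the names matched exactly for 58 of the 114 names and for 13 of the 29 that were bright enough to test. miR-2137, miR-1903, miR-1892, miR-1895 and miR-1894-3p are shown because their mean intensities were higher in KO samples, and miR-1187 because it was bright and its groups overlapped. The 13 tested miRNAs with a sequence shared no seed with one another.
miR-2137: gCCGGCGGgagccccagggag
miR-1903: cCUUCUUCuucuuccugagaca
miR-1892: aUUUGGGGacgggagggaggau
miR-1895: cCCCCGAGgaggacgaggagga
miR-1894-3p: gCAAGGGAgagggugaagggag
miR-1187: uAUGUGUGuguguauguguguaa

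miR-2137 lies at chrX:72992113-72992133 on the plus strand, within the span of Zfp185, which encodes a LIM-domain protein that associates with actin. miR-1903 lies at chr8:128359251-128359272 on the plus strand within Nrp1, a coreceptor for semaphorins and VEGF. miR-1892 lies at chr12:54645943-54645964 on the minus strand within Sptssa, a small subunit of serine palmitoyltransferase, and miR-1895 at chr3:134240515-134240536 on the minus strand within Cxxc4, an inhibitor of Wnt signalling. miR-1894-3p lies at chr17:35917938-35917959 on the plus strand within Ppp1r10, a regulatory subunit of protein phosphatase-1. miR-1187, a repeat of UG and UA steps, lies at chr5:82798964-82798986 on the minus strand with no gene around it. The gene table holds gene spans without exons or gene strands, so exon and intron were not told apart. miR-2137 and miR-1895 were rich in G and C (85.7% and 72.7% of bases), and miR-1903 was not (45.5%). The median was 57.1% over the tested miRNAs of the set with a sequence and 55.3% over all tested names with a sequence. A link between composition and change was not tested.

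The deposited values are normalized intensities, the brightness of each miRNA's probe on a linear scale. Sample totals lay between 594311 and 636136. Of 6 muscle miRNA names sought, 4 were on the array, and their summed intensity was 35775 to 48033 in WT and 31261 to 44063 in KO samples. This sum leaves out miR-1, which the array lists as miR-1a, with a mean intensity of 48480 and a log2 change of 0.17 (adjusted p = 0.685). The 2 endothelial miRNAs, both on the array, summed to 2233 to 4745 in WT and 765 to 2709 in KO samples, and those of blood to 89 to 468 and 41 to 368. Nerve miRNAs summed to 5 to 17 in WT and 6 to 38 in KO samples, those of liver to 3 to 16 and 2 to 11, and those of epithelium to 13 to 30 and 15 to 32. Bright enough to test were 3 muscle, 1 blood and 1 endothelial miRNA of these lists, and 0 of nerve, liver or epithelium. At the unadjusted threshold the endothelial one, miR-126-3p, was lower in KO samples, and the tested muscle and blood ones did not pass. The part of other cells in the results was not tested. Cfl2 itself is not on a miRNA array, so the genotype was not checked. KO1 stood apart: its array weight in limma, a measure of how well a sample follows its group, was 0.156, against 0.500 to 3.31 for the other samples. The log2 changes of miR-1895, miR-1894-3p and miR-1966 and the counts past the adjusted threshold are also given without KO1.

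Most of these miRNAs were dim in muscle. A mean intensity of at least 32 over the 12 samples was required for testing, and 29 of the 114 passed (25.4%), against 370 of all 1096 names (33.8%). The filter reads the mean over both groups, so a miRNA bright in either group alone could pass through it. The tested miRNAs had mean intensities of 33.5 to 13988, with a median of 91, and 10 of them reached 200. The 8 with the highest mean intensity were miR-1895, miR-1196, miR-1187, miR-1892, miR-2137, miR-1946a, miR-1897-5p and miR-1195. Probes differ in how brightly they report, so their order is not an order of abundance. The other 85 had means of 1.5 to 28.2 (median 8.92), and 72 of these had every value under 32.

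**Figure D1:**
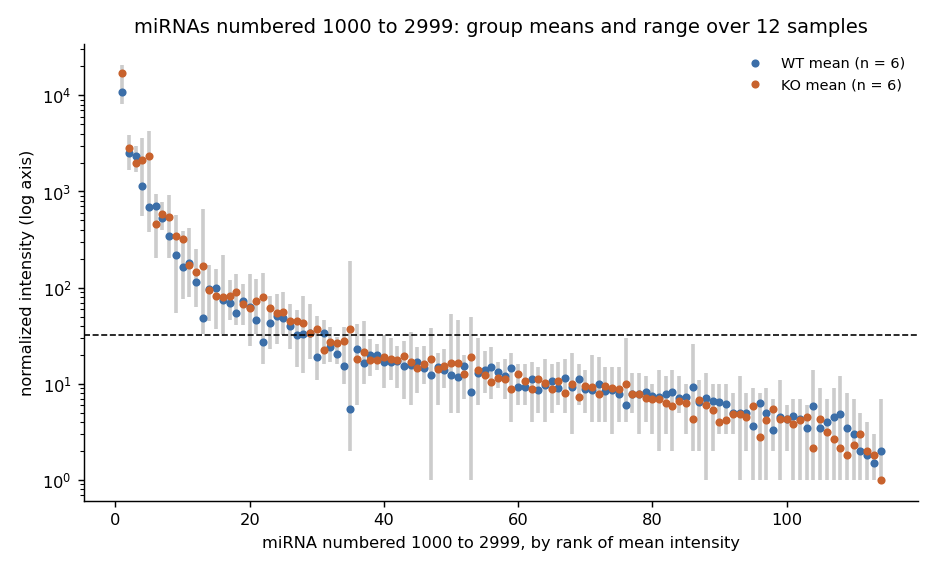
Intensity (log scale) of each of the 114 miRNAs from miR-1000 to miR-2999, ordered by rank of mean intensity, with group means for WT and KO as points, the range over 12 samples as lines, and values under 1 drawn at 1. Most names sit under the filter at 32 and 29 sit above it.

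The summed intensity of the set was higher in most KO samples, and a few bright names made up much of it. The summed intensity of the 114 names was 18726 to 24317 in WT (median 22277) and 23423 to 35106 in KO samples (median 32071.5). miR-1895 alone made up 42.3% to 55.2% of this sum in WT and 40.0% to 59.3% in KO samples. Without miR-1895 the sums were 9945 to 12385 in WT and 12701 to 15429 in KO samples, and the groups did not overlap. That depends on miR-2137, which read 382 to 848 in WT and 939 to 4300 in KO samples. With miR-2137 left out too, the groups overlapped. These sums describe the samples and were not tested. Counted by name with no filter, the log2 change (KO minus WT) was above 0 for 57 of the 114. The median was 0.0103, against -0.0849 over all 1096 names. In that fit 85 of the 114 names were under the filter, so the count says little about the brighter ones.

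Levels were compared with limma on log2 intensities over all 370 tested names, and a log2 change is KO minus WT. After adjustment for multiple testing, 2 of the 29 miRNAs differed, miR-2137 and miR-1903, both higher in KO, where 1.35% of all tested names did. miR-1903 passed the filter through its KO values alone, the 1 tested miRNA with a group mean under 32, so its call is not counted as support. At an unadjusted p under 0.05, 8 of the 29 passed (27.6%), against 19.5% of all tested names. Of the 8, 7 were higher in KO (24.1% of the 29, against 9.73% of all) and 1 was lower (3.45%, against 9.73%). Among the 7 is miR-1903, and the shares and medians given here include it and were not computed without it. The median log2 change was 0.20 over the 29 and -0.08 over all 370. The fitted change was above 0 for 21 of the 29 (72.4%), against 43.2% of all tested names. Names numbered above miR-2999 had a median log2 change of 0.43 over 42 tested. At the unadjusted threshold 23.8% of them were higher and 0% lower, and 69.0% had a fitted change above 0, shares close to those of the 29. For let-7 and names numbered below miR-1000 the median was -0.11 over 296 tested, with 5.74% higher, 11.5% lower and 36.5% above 0. The difference between these classes was not tested. Leaving out single samples left between 0 and 4 of these miRNAs past the adjusted threshold, with 0 without WT1, WT3 or KO2 and 4 without KO1. Without KO1, 49 of all 370 tested names passed, so the count rose over the whole array.

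**Figure D2:**
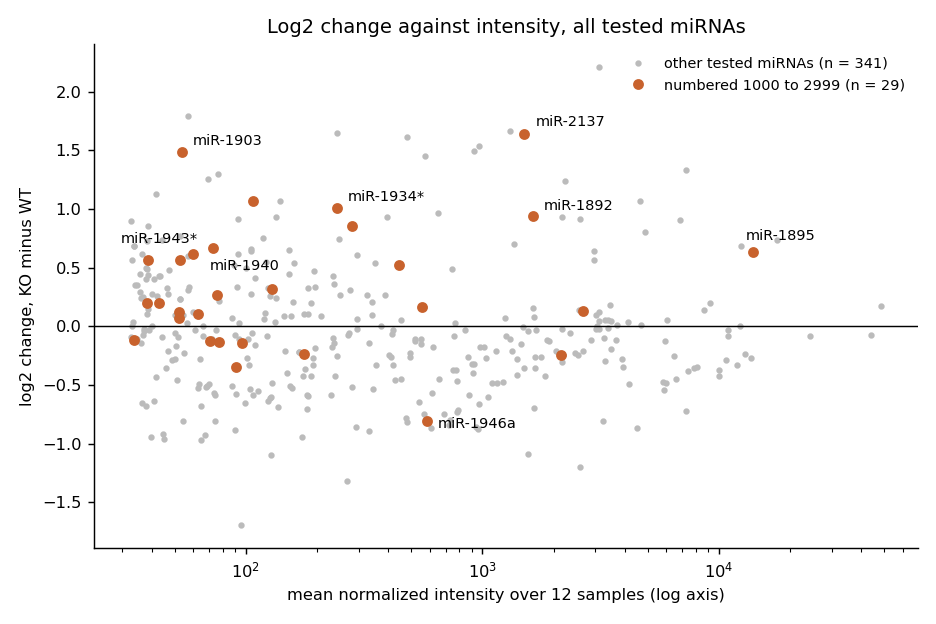
Log2 change (KO minus WT) against mean intensity (log scale) for the 370 tested miRNAs, with the 29 from miR-1000 to miR-2999 marked. Of the marked points, 21 lie above 0, and miR-2137 and miR-1903 lie highest.

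miR-2137 rose in KO muscle and was the only one of the 29 whose groups did not overlap. Its intensity was 382 at lowest, 716 at the median and 848 at highest in WT, and 939, 1997.5 and 4300 in KO samples. Every KO sample thus read above every WT sample, and the highest value came from KO1. The means were 692.2 ± 165 in WT and 2322 ± 1137 in KO samples (SD, n = 6 each), a ratio of 3.35. The log2 change was 1.64 with a standard error of 0.327 (95% confidence interval 0.94 to 2.35, adjusted p = 0.0190). The exact permutation test gave p = 0.0022, the smallest it can give with 6 against 6. Over all 370 names, 1.62% did not overlap with KO higher and 0.811% with KO lower. The adjusted p ranged from 0.00365 without KO4 to 0.0579 without KO2, and it was also past the threshold in the fit without KO1. The call was lost without WT1, WT3 or KO2, and also with no filter on dim names (adjusted p = 0.0952).

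miR-1903 had a higher KO level at a dim probe that reached the filter only through the KO samples. It read 16, 28 and 40 (lowest, median, highest) in WT and 35, 73 and 141 in KO samples. In 5 of 6 KO samples it was above every WT sample, and KO6 lay within the WT range. The means were 27.5 ± 9.52 in WT, under the filter, and 79.5 ± 35.3 in KO samples. The log2 change was 1.49 with a standard error of 0.329 (95% confidence interval 0.78 to 2.20, adjusted p = 0.0382). The call held without WT4, KO1, KO4 or KO6 and was lost in the other 8 fits that left out a sample, with adjusted p from 0.0113 without KO6 to 0.121 without WT1. It also held in 4 of 12 other settings and not with a floor of 32 (adjusted p = 0.0514), and with a pseudocount of 50 the log2 change was 0.71.

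**Figure D3:**
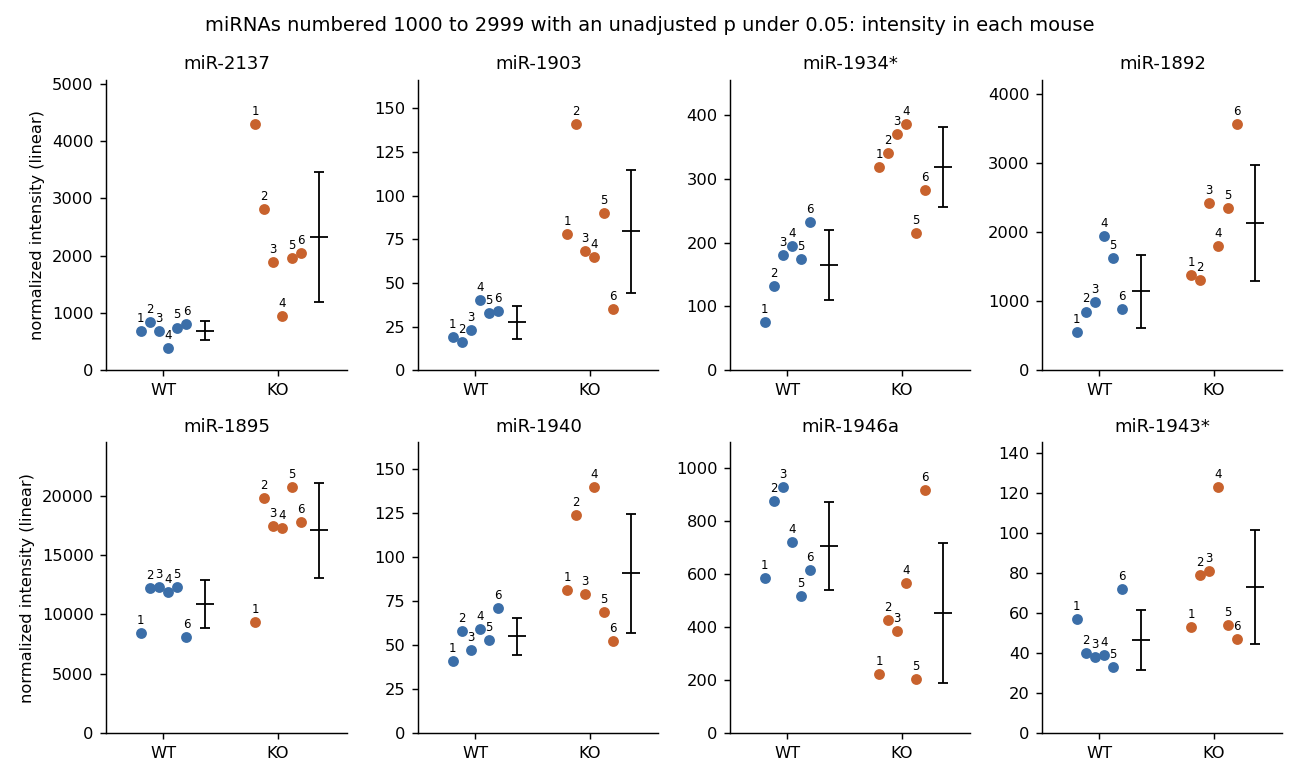
Normalized intensity (linear scale from 0) in each of the 6 WT and 6 KO mice for the 8 miRNAs from miR-1000 to miR-2999 with an unadjusted p under 0.05, with numbered points for mice and the group mean ± SD beside them. The groups separate fully for miR-2137, and miR-1946a is the one that reads lower in KO mice.

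The run from miR-1892 to miR-1907 held 18 names on the array, and 7 of them were tested. At the unadjusted threshold 3 of the 7 were higher and none lower, where 9.73% of all tested names were called in each direction. Among the 3 is miR-1903, which passed the filter through its KO values alone, so its call is not counted as support here either. The median log2 change of the 7 was 0.85 with miR-1903 included, against -0.08 over all tested names. miR-1892 read 552, 934 and 1946 (lowest, median, highest) in WT and 1307, 2066.5 and 3560 in KO samples. The groups overlapped, with 3 of 6 KO samples above every WT sample, and its log2 change was 0.94 (95% confidence interval 0.22 to 1.66, adjusted p = 0.127). miR-1895 read 8104, 12099.5 and 12279 in WT and 9371, 17623.5 and 20780 in KO samples. KO1 was the one KO sample inside the WT range. The log2 change of miR-1895 was 0.63 (95% confidence interval 0.14 to 1.12, adjusted p = 0.132). Without KO1 it was 0.80 (adjusted p = 0.0224), so its call depends on that sample.

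miR-1894-3p read 33, 47.5 and 63 in WT and 56, 70 and 657 in KO samples, and 657 was KO1. The other KO samples read 56 to 81. In 5 of 6 KO samples miR-1894-3p was above every WT sample, and KO4 (56) lay within the WT range. The log2 change of miR-1894-3p was 1.07 (95% confidence interval -0.02 to 2.16, adjusted p = 0.261), and it was 0.52 without KO1 (adjusted p = 0.0925). It was past the unadjusted threshold without KO1, KO2, KO4 or KO6. miR-1907, within Trps1, a GATA-type repressor, read 54, 154 and 465 in WT and 122, 337 and 570 in KO samples, and its groups overlapped widely. The log2 change of miR-1907 was 0.85 (95% confidence interval -0.38 to 2.09). miR-1897-5p, within the long noncoding RNA Sox2ot, read 401 to 778 in WT and 475 to 678 in KO samples (log2 change 0.17, adjusted p = 0.729). miR-1906, which has a copy within Meg3, the maternally expressed noncoding RNA of the Dlk1-Dio3 region, read 53 to 102 in WT and 41 to 108 in KO samples (log2 change -0.12).

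The run from miR-1927 to miR-1971 held 52 names and 11 tested miRNAs, of which 3 were higher and 1 lower at the unadjusted threshold (19.5% of all tested names in either direction, 9.73% in each), with a median log2 change of 0.20. miR-1934* read 76, 177.5 and 233 in WT and 215, 330 and 386 in KO samples. In 5 of 6 KO samples it exceeded every WT sample. The means were 165 ± 54.4 in WT and 319 ± 62.7 in KO samples (SD, n = 6 each), and the log2 change was 1.01 with a standard error of 0.270 (adjusted p = 0.0672). Leaving out single samples gave adjusted p from 0.0387 without KO1 to 0.183, so the side of the threshold on which it lies depends on the samples used. miR-1940 read 41 to 71 in WT and 52 to 140 in KO samples (log2 change 0.67, adjusted p = 0.158). miR-1943*, whose gene lies within Tmem184b, read 33 to 72 in WT and 47 to 123 in KO samples (log2 change 0.62, adjusted p = 0.232). The unadjusted call of miR-1940 was lost without KO2 or KO4, and that of miR-1943* without WT2, WT3, WT4, WT5, KO2, KO3 or KO4.

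miR-1946a was the miRNA with a lower unadjusted call. It read 516, 669 and 931 in WT and 203, 406 and 920 in KO samples. In 4 of 6 KO samples it was below every WT sample, while KO6 was close to the highest WT sample. The log2 change was -0.81 (95% confidence interval -1.55 to -0.06, adjusted p = 0.214). The unadjusted call was lost in 6 fits, those without WT2, WT3, WT4, KO1, KO3 or KO5.

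Where both arms of a hairpin have probes, they can be set side by side. There were 12 hairpins with at least 2 names on the array and at least 1 tested, and in 1 of them, miR-1934, both arms were bright enough to test. The Mir1934 hairpin lies at chr11:69663043-69663125 on the plus strand, printed here with both annotated arms in capitals to show that they come from the same precursor. Which of them the array calls the star was not matched here.
Mir1934: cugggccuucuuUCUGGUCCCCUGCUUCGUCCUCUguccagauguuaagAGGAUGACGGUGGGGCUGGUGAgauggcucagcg
The other arm, miR-1934, read 23 to 47 in WT and 13 to 81 in KO samples (log2 change 0.20, adjusted p = 0.855). The log2 of miR-1934* over miR-1934 within a sample was 2.27 ± 0.669 in WT and 3.08 ± 0.836 in KO samples (SD, n = 6 each), a difference of 0.81 (exact permutation p = 0.0736). A change of the ratio between the arms was thus not shown.

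**Figure D4:**
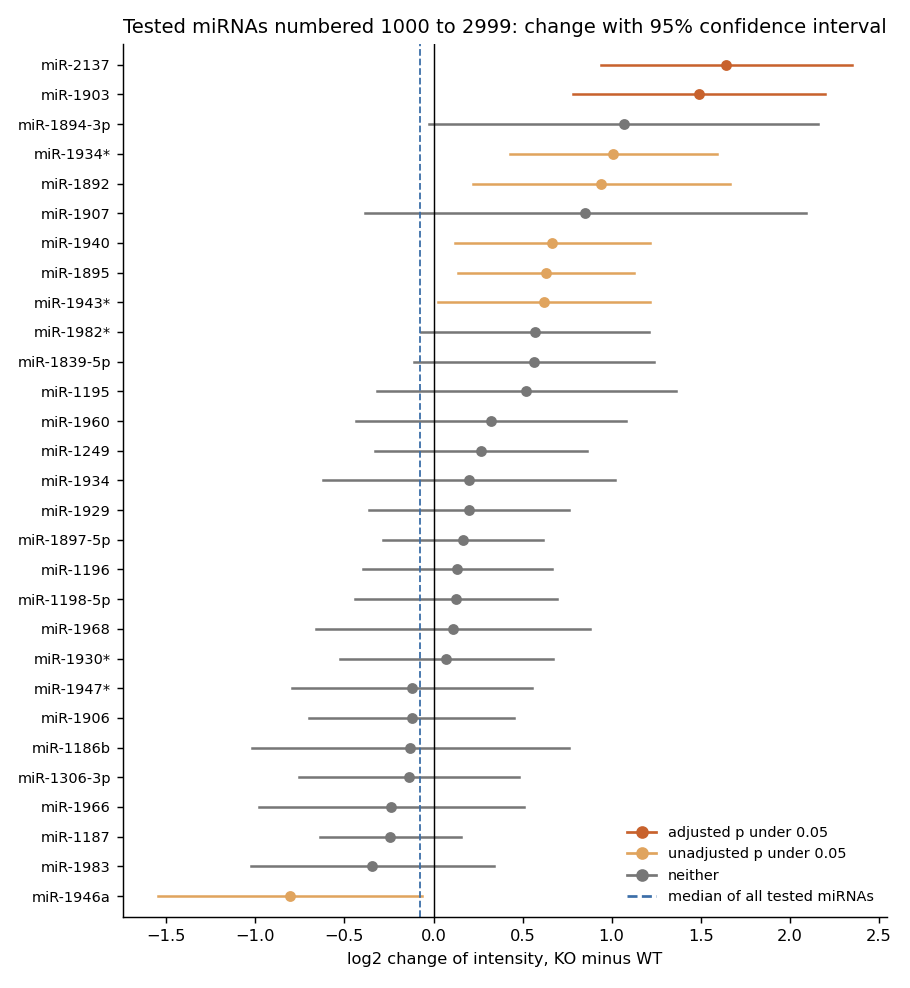
Log2 change (KO minus WT) of each of the 29 tested miRNAs from miR-1000 to miR-2999, with points for the estimate and lines for the 95% confidence interval from limma. The intervals of 7 miRNAs lie wholly above 0 and that of miR-1946a wholly below it, and the other 21 include 0.

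A list of 5 numbers also used in human (miR-1249, miR-1251, miR-1264, miR-1298 and miR-1306), not a full list of such numbers, held 10 names and 2 tested ones. miR-1249 had a log2 change of 0.27 (95% confidence interval -0.33 to 0.86), and miR-1306-3p, in the span of Dgcr8, which encodes a partner of Drosha in the cut that frees hairpins, had -0.14 (95% confidence interval -0.76 to 0.48). miR-1983, which matches a tRNA, read 66 to 148 in WT and 37 to 156 in KO samples (log2 change -0.34, 95% confidence interval -1.03 to 0.34). miR-1839-5p, within the long noncoding RNA 2900076A07Rik, read 23 to 69 in WT and 31 to 82 in KO samples (log2 change 0.57). Of the 3 names in the run from miR-2132 to miR-2146, miR-2137 was the tested one.

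The remaining bright miRNAs gave no call. miR-1187 read 1818, 2279 and 2936 in WT and 1590, 1992 and 2280 in KO samples (log2 change -0.24, 95% confidence interval -0.64 to 0.15). miR-1196 read 1931, 2519.5 and 3147 in WT and 1661, 3074.5 and 3862 in KO samples (log2 change 0.13, 95% confidence interval -0.40 to 0.67). miR-1195 read 203, 319 and 519 in WT and 212, 562.5 and 910 in KO samples (log2 change 0.52, 95% confidence interval -0.32 to 1.36). These intervals leave room for changes of either sign. In the tests that remained, miR-1982* within Oaz1, an antizyme of ornithine decarboxylase, had a log2 change of 0.57, miR-1960 within Hadhb, of mitochondrial fatty acid oxidation, 0.32, miR-1929 within the autophagy gene Atg5 0.20, and miR-1966 within Ripor1 -0.24. miR-1966 read 421 in KO1 and 80 to 172 in the remaining KO samples, and without KO1 its log2 change was -0.54 (adjusted p = 0.140). The others, miR-1186b, miR-1198-5p, miR-1930*, miR-1947* and miR-1968, had log2 changes of -0.13, 0.12, 0.07, -0.12 and 0.11. Of the 26 tested names that matched a gene, 20 lay within the span of another gene.

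**Figure D5:**
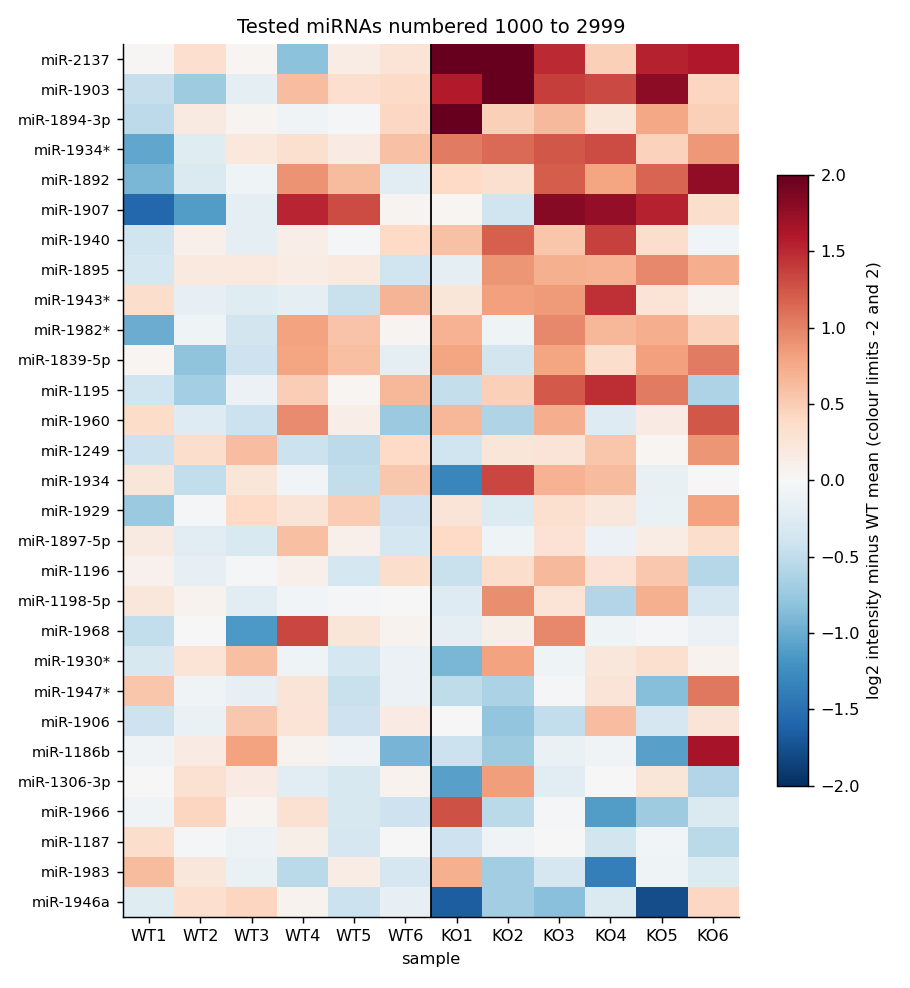
Log2 intensity of the 29 tested miRNAs (rows) in the 12 samples (columns), relative to the mean of the WT samples for each miRNA, with the colour scale ending at 2 in both directions. KO1 departs from the other KO samples at miR-1894-3p, miR-1895 and miR-1966, among others.

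Among the dim miRNAs, 13 of the 85 had at least 1 value of 32 or more, and none had groups that did not overlap. The KO mean was above the WT mean in 38 of the 85 and below it in 44. miR-1839-3p, the other arm of the miR-1839 hairpin, had means of 19.2 in WT and 37.2 in KO samples, with values of 11 to 27 and 21 to 51. miR-1899 read 190 in KO1 and 4 to 9 in the remaining KO samples, where WT samples read 2 to 8. miR-1843b-5p, whose gene overlaps the small Cajal body RNA Scarna3a, read 53 in KO1 and 5 to 12 in the remaining KO samples, where WT samples read 8 to 16.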

How the data were processed

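MicroRNAs were measured in quadriceps muscle of 12 mice on an array designed from miRBase version 17 (mouse). The authors deposited normalized intensities, linear and in whole numbers, for 1096 names; the normalization, background correction and averaging of spots are not given in the sources used here. Samples were grouped by the genotype in their labels, and each table column was matched to a sample by its title, leaving 0 unused per-sample columns. No counts underlie an intensity, so the number of mice limits the precision.

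After a floor of 1, values were put on the log2 scale. A name was tested if its intensity averaged at least 32 over all samples, as 370 did. The genotypes were compared two-sided by lmFit and eBayes of limma 3.58.1 under R 4.3.3, with Benjamini-Hochberg adjustment over the 370 and a threshold of 0.05. Where a class of names is described, its share is set beside that of all tested names. For single miRNAs, an exact permutation test went through all 924 ways to assign 6 of 12 samples. On simulated data, with 60 of 370 miRNAs changed in each of 20 simulations, the comparison of KO with WT recovered 54.3% of changes of 1 and 93.2% of changes of 2 on the log2 scale, with 5.50% false calls.

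The miRNAs, the lists and the tests were chosen with earlier results of these data known. Named were the miRNAs past the unadjusted threshold, the 8 brightest, miR-1892, miR-1895 and miR-2137, both arms of tested hairpins, and the tested members of the lists, which were 5 numbers also used in human, a tRNA match, both arms of miR-1839 and 3 runs of numbers. Values of dim miRNAs with a high KO1 value were picked after they were seen. Alternatives were 14 other settings and 12 fits that each left out a sample. Sequences and gene spans came from RefSeq tables of GRCm38.p6, in which 102 of the 114 names matched a gene; composition was not compared between groups, since 44.8% of the tested miRNAs had a sequence. Plots were drawn with matplotlib 3.10.9 in Python 3.11.15.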

Additional observations from a re-analysis of the deposited data

Results flagged for a closer look

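A sample far from the other 5 of its group was found in 5 of the 58 groups of 6 samples examined (29 miRNAs, WT and KO). Chance marks about 1 in 20 groups, or 2.9 of the 58. A sample was taken as far when its gap to the nearest other, as a share of the group's range on the log2 scale, passed Dixon's 95% critical value. On linear intensities, tried after seeing the data, 7 groups passed, with KO1 at miR-1966 (421, others 80 to 172) and WT4 at miR-1968 (139, others 25 to 65) beside the same 5.

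On the log2 scale KO1 was such a sample at 2 miRNAs. It read 657 for miR-1894-3p, where the other KO samples read 56 to 81, and without it the log2 change was 0.52 (adjusted p = 0.0925). It read 9371 for miR-1895, where the others read 17311 to 20780, and without it the log2 change was 0.80 (adjusted p = 0.0224). KO6 read 220 for miR-1186b against 33 to 67 in the other KO samples, and without it the log2 change was -0.49 (adjusted p = 0.368). KO3 read 107 for miR-1968 against 48 to 60, and without it the log2 change was -0.06 (adjusted p = 0.983). WT4 read 382 for miR-2137 against 683 to 848 in the other WT samples, and without it the log2 change was 1.48 (adjusted p = 0.0305).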

How the results depend on the processing

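Past the adjusted threshold there were 2 miRNAs as reported. There was 1 with a floor of 32, quantile normalization, median centring, a filter at 500 or Student's t-test on linear values (miR-1934*). The methods name that t-test for the mRNA arrays and no test for the miRNAs. The count was 0 with no filter (15 unadjusted) and 0 with Student's t-test on log2 values (7 unadjusted). It was 3 with a pseudocount of 50 or cyclic loess, and 12 with array weights (115 of all 370 names). With the replicate number as a block it was 1, and 1 with the replicate block and cyclic loess. Whether a shared number marks a littermate pair is not stated in the sources used here. With group means removed, same-numbered samples had a correlation (r) over 0.1 in 3 of 6 pairs (range -0.453 to 0.594), which cannot settle it. Leaving out each sample gave 0 to 4 past the adjusted threshold, 6 to 9 past the unadjusted threshold (8 as reported) and medians of 0.174 to 0.286. The unadjusted count was 15 with no filter, 5 and 4 at a mean of at least 200 and 500, and 14 with array weights (42.2% of all names). The median log2 change, 0.20 as reported, was 0.519 under array weights, 0.0103 with no filter and 0.576 with the filter at 200. The cause of these shifts was not tested, beyond the number of miRNAs tested (10 at 200, 7 at 500).

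None of the 8 unadjusted calls changed sign. Among the other miRNAs, the log2 change turned for miR-1947* with a floor of 32 (0.0838), for miR-1186b (0.0998) and miR-1968 (-0.0345) with the t-test on linear values, and for miR-1930* with quantile normalization (-0.00250) and array weights (-0.0492). Leaving out samples, it ranged from -0.0281 to 0.500 for miR-1934, -0.333 to 0.0538 for miR-1306-3p, -0.0360 to 0.266 for miR-1198-5p, -0.270 to 0.00939 for miR-1906, -0.208 to 0.0287 for miR-1947*, -0.485 to 0.0619 for miR-1186b, -0.120 to 0.375 for miR-1968 and -0.0748 to 0.267 for miR-1930*. The direction of 21 of the 29 never turned. The adjusted call of miR-2137 was lost with no filter and both t-tests (adjusted p 0.0525 to 0.0952), and the unadjusted call of miR-1946a with quantile normalization, cyclic loess (with or without the block) and both t-tests. miR-1943* kept its unadjusted call in 3 of 12 other settings.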

Other observations

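In the fit over all 1096 names with no filter, 15 of the 114 miRNAs had an unadjusted p under 0.05, 8 higher and 7 lower in KO samples, where 123 of all 1096 names did (11.2%), and none of the 114 passed the adjusted threshold. Of these, 8 lay under the filter of the reported comparison: miR-1961, miR-1839-3p, miR-1904, miR-1941-5p, miR-1251, miR-1964-3p, miR-1249* and miR-1941-3p, with adjusted p from 0.223 to 0.422. Among these names under the filter, miR-1839-3p (log2 change 0.97 in that fit) and miR-1904 (0.83) were higher in KO samples. The rest were lower, with log2 changes from -0.58 for miR-1249* to -1.54 for miR-1961. The other arm of the miR-1839 hairpin, miR-1839-5p, had 0.57 in the reported limma comparison (adjusted p = 0.342). Its confidence interval, -0.11 to 1.24, included 0, so a shared change of both arms was not shown.

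The letters GGGA, looked for on the mature strand after the results were seen, occurred in miR-2137, miR-1892 and miR-1894-3p, 3 of the 13 tested miRNAs with a sequence. They occurred in 8 of the 94 tested names of the whole array with a sequence (8.51%) and in 226 of 1679 mature names of the RefSeq table (13.5%). Names of the set under the filter held them too, among them miR-1904 (log2 change 0.83 with no filter) and miR-1941-5p (-0.59). Whether the letters go with a change was not tested.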
